A study of Mus musculus with 14 samples.

Results

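The T cell receptor signalling components described here are 39 genes that carry a signal from the receptor at the cell surface to transcription. They were chosen by name as 5 receptor chain and co-stimulation genes, 4 proximal kinase and phosphatase genes, 9 adaptor and exchange factor genes, 13 negative regulators and 8 downstream enzymes and factors. A probe set annotated with a single gene symbol was found for 38 of the 39, out of 19937 genes with such a probe set. Lck was not analysed here. All 38 passed the filter on low values, and the lowest value of any member on any array was Nfatc2 at 8.44 on a log2 scale, where 1 unit is a doubling of the array signal.

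The study measured gene expression on 14 arrays in sorted T cells of C57BL/6 mice that were wild type (WT) or ENK KO, and asked how the genotypes differ in each cell population. Thymocytes bearing both CD4 and CD8 were measured in 3 WT samples at an age of 7 months (replicates 38, 7 and 32) and 2 ENK KO samples (replicate 29 at 7 months and replicate 1 at 2 months). Cells labelled as CD8+ T cells of the spleen were measured in 4 WT samples at 7 months (replicates 40, 37, 34 and 22) and 5 ENK KO samples (replicate 31 at 7 months, replicate 6 at 2 months, replicate 28 at 6 months, replicate 25 at 9 months and replicate 3 at 2 months). Values below follow these orders. The labels do not say that the samples of a group came from separate animals. The 2-month-old samples were female and the other ENK KO samples male, and each WT group held 1 female. The labels leave ENK unexplained, do not describe the allele, and the series title names Engrailed-2. Its gene, En2, lay between 6.01 and 6.14 on all 5 thymus arrays, under the level of 6.76 of the filter on low values. It was at 6.19 to 6.93 in WT spleen and at 6.12 to 7.87 in ENK KO spleen, ranges that cross this level. It did not separate the genotypes, and at values this low a loss might not be seen. The position of its probe set relative to any deletion was not analysed here.

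The receptor recognises peptide on MHC molecules but has no enzyme of its own. CD3 and zeta chains carry motifs that the kinase Lck phosphorylates, Zap70 docks there and phosphorylates the adaptors Lat and Lcp2 (SLP-76), and the enzymes gathered on them open the calcium, Ras and protein kinase C branches. In thymocytes with both CD4 and CD8 this signal is read during positive and negative selection. In mature CD8+ T cells it starts the response to foreign peptide and is restrained by phosphatases, ubiquitin ligases and lipid kinases.

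The array labelled spleen ENK KO replicate 28 went against its label. Its Cd8a value was 6.78 against 12.06 to 12.53 on the other 8 spleen arrays, its Cd4 value was 12.20 against 6.61 to 6.92, and Foxp3, which marks regulatory T cells, had a value of 9.87 against 7.34 to 7.48. On this array 21 of 38 members (55.3%) lay outside the range of the other 8 spleen arrays, 13 above and 8 below, against 32.9% of all genes tested. A second fold in parentheses after an ENK KO fold is the fold without this array, and counts and genotype differences are given with and without it. Cd4 and Cd8a were at 12.89 or higher on all 5 thymus arrays, as their labels say. The averaged B cell markers (5 of 6 measured) were at 6.69 to 6.80 in the thymus groups, 7.59 to 8.14 in WT spleen and 6.87 to 8.04 in ENK KO spleen. The 4 platelet markers averaged 6.30 to 6.40 in the thymus groups, 7.20 to 7.45 in WT spleen and 6.85 to 7.04 in ENK KO spleen. The 4 NK cell markers averaged 5.22 to 5.27 in the thymus groups, 6.30 to 6.64 in WT spleen and 5.81 to 6.71 in ENK KO spleen. The 1 measured erythroid marker of 4, Alas2, was at 6.56 to 6.92, 8.39 to 9.09 and 7.26 to 8.81. The 6 myeloid markers averaged 6.23 to 6.34 in the thymus groups, 6.35 to 6.57 in WT spleen and 6.25 to 6.68 in ENK KO spleen. Averages of the 4 dendritic and 4 stromal markers overlapped between the tissues. The part of these markers in the results was not tested.

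Between the WT populations, 30 of the 38 members passed the test, 14 higher and 16 lower in spleen CD8+ cells than in thymus CD4+CD8+ cells (limma, Benjamini-Hochberg adjusted p under 0.05). Of all 13641 genes tested 68.6% passed, 30.5% higher and 38.2% lower, so that the count alone is not far from that of other genes. A difference of at least 2-fold was found for 9 members against 12.8% of all genes. Cblb, Malt1, Nfatc1 and Nfatc2 were the 4 higher in spleen (6.70% of all genes), and Cbl, Themis, Sla, Tespa1 and Nfatc3 the 5 lower (6.13%). The median size of the difference was 0.606 for the members and 0.31 for all genes, and the signed medians were -0.052 and -0.045. In RNA of a sorted population, fewer expressing cells and less RNA per cell cannot be told apart.

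The estimates in ENK KO rest on other arrays than those in WT, while the spread was estimated over all 14. In ENK KO there were 31 members past the threshold, 14 higher and 17 lower, where 64.4% of all genes passed, 27.4% higher and 37.1% lower. All 30 members that passed in WT passed in ENK KO with the same sign, which is 100% of the WT calls and 96.8% of the ENK KO calls, against 87.1% and 92.8% for all genes tested. Cd28 was the member that passed in ENK KO alone, and Cd3e, Cd3d, Ptprc, Sos1, Cd5, Cd6 and Bcl10 passed in neither. The difference between populations was within 0.36 of the other genotype's for every member, with a median gap of 0.06. Without replicate 28 the largest gap was 0.49 and the median gap 0.07. Without replicate 28, 32 members passed in WT (70.1% of all genes), 30 in ENK KO (65.0%) and 30 in both, with Zap70 and Cd5 passing in WT alone. Every spleen array lay above every thymus array for 14 members and below for 15, which is 76.3% of the members against 56.5% of all genes (24.4% above and 32.1% below). Without replicate 28 this was 14 and 16 members against 58.9% of all genes (25.7% and 33.2%).

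**Figure D1:**
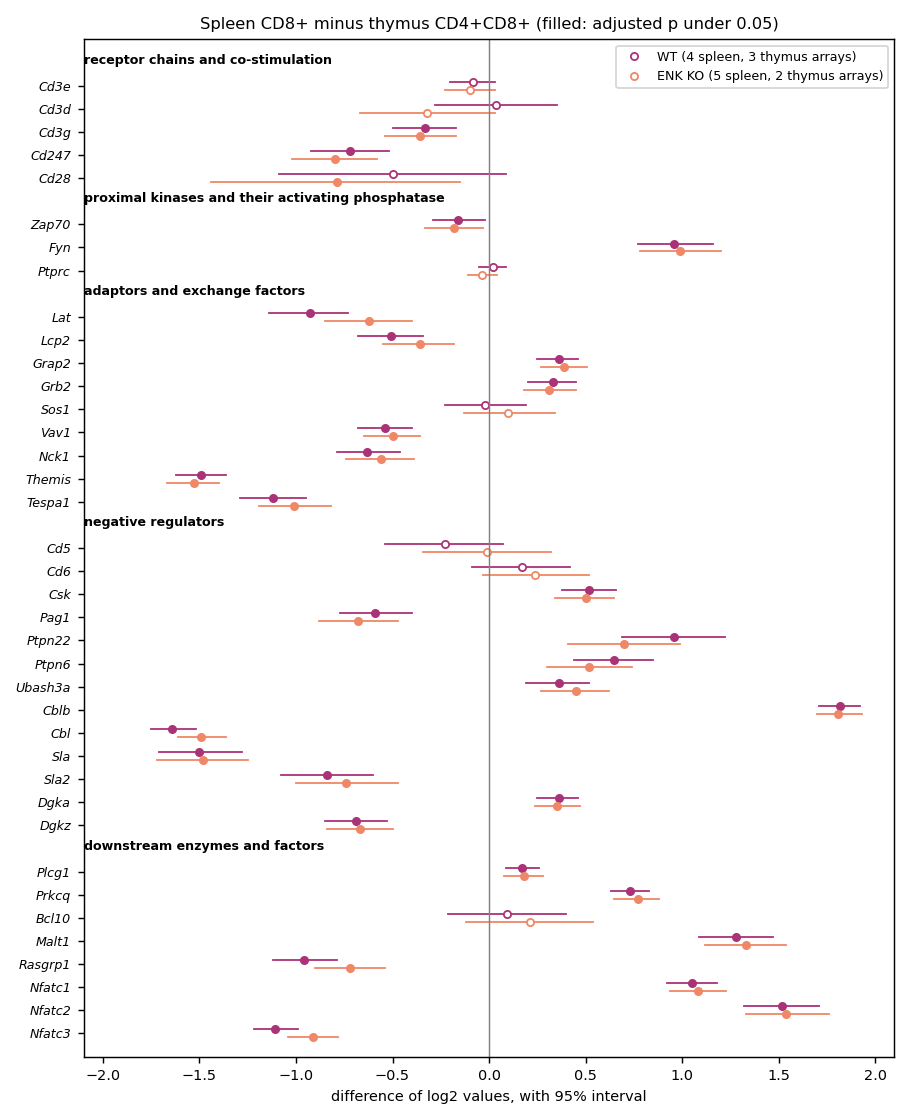
Difference in log2 value between spleen CD8+ and thymus CD4+CD8+ cells for the 38 members, grouped by signalling step, in WT and in ENK KO. Points are estimates from the limma fit, bars are 95% intervals, and filled points passed at an adjusted p under 0.05. Cblb lies farthest to the right at 1.82 and 1.81, and Cbl farthest to the left in WT at -1.64.

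The deposited arrays of the 2 tissues did not share a single distribution. The medians were alike (7.14 to 7.25 over all arrays), but the 99.5th percentile was 12.80 to 12.85 on thymus arrays and 13.04 to 13.13 on spleen arrays. The number of distinct values per array was 21527 to 22231 in thymus and 25648 to 26333 in spleen. No label tells if the tissues were normalised together. If they were not, tissue and processing cannot be told apart in the population differences. Quantile normalization of the gene values over all arrays would not undo a separate background correction or probe summary. It moved the members' population differences by up to 0.23. It kept 29 of the 30 WT calls with their sign, and changes of call are given with each gene.

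Among the receptor chains and co-stimulation genes, 2 of 5 fell in WT spleen CD8+ cells and 0 rose, beside 38.2% and 30.5% of all genes. In ENK KO 3 of 5 fell and 0 rose, beside 37.1% and 27.4%. Cd247 encodes the zeta chain, which carries most of the receptor's signalling motifs. Its log2 values were 11.45, 11.34 and 11.45 in WT thymus and 10.70, 10.56, 10.68 and 10.83 in WT spleen, a fall of 1.65-fold (log2 difference -0.72, SE 0.093, adjusted p = 1.49e-05). In ENK KO the fall was 1.74-fold (1.82-fold), at a difference of -0.80 (SE 0.10), and all 9 spleen arrays lay below all 5 thymus arrays. Cd3g, the gamma chain, fell by 1.26-fold in WT (-0.33, SE 0.078, adjusted p = 0.00196) and 1.28-fold (1.32-fold) in ENK KO. The ENK KO call for Cd3g was lost without the 2-month-old thymus replicate 1, when its difference was -0.27. Cd3e, the epsilon chain, did not pass, with a WT mean of 13.28 ± 0.10 (SD, n = 3) in thymus and 13.19 ± 0.06 (SD, n = 4) in spleen. After quantile normalization it passed at -0.32 in WT and -0.28 in ENK KO, and Cd3g then differed by -0.55 in WT. Cd3d, the delta chain, had no settled direction in WT: its difference was 0.037 (95% interval -0.28 to 0.35), and it was -0.097 without thymus replicate 38. In ENK KO Cd3d differed by -0.32 (limma adjusted p = 0.0952) and did not pass. It was lower in spleen in all 25 alternatives (-0.48 to -0.17). It passed in 3 of them: with a sex term, without WT thymus replicate 7 and without spleen replicate 3. Cd28, the main co-stimulatory receptor, differed by -0.50 in WT (adjusted p = 0.118) and by -0.79 in ENK KO (adjusted p = 0.0321). The ENK KO call for Cd28 was lost without any 1 of thymus replicates 29 and 1 and spleen replicates 6, 25 and 3, with differences between -0.85 and -0.69. Without replicate 28 Cd28 passed in both genotypes, with an ENK KO difference of -0.99.

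Of the proximal enzymes, Fyn rose, Zap70 passed at a small size and Ptprc did not pass. Fyn encodes a Src-family kinase that phosphorylates the receptor motifs beside Lck. Its values were 10.54, 10.92 and 10.61 in WT thymus, 10.77 and 10.63 in ENK KO thymus, 11.64, 11.73, 11.67 and 11.56 in WT spleen and 11.86, 11.65, 11.67, 11.71 and 11.57 in ENK KO spleen. Every spleen array was above every thymus array, and the rise was 1.95-fold in WT (0.96, SE 0.089, adjusted p = 6.42e-07) and 1.99-fold (2.00-fold) in ENK KO. Zap70, the kinase that docks on the phosphorylated chains, differed by -0.16 in WT (adjusted p = 0.0357) and -0.18 in ENK KO (adjusted p = 0.0313). Its spleen and thymus values overlapped, and the call was lost after quantile normalization in both genotypes (-0.037 and -0.067). It was also lost in WT without thymus replicate 7 or without any 1 of spleen replicates 40, 34 and 22 (-0.15 to -0.099), and in ENK KO without either thymus replicate or any 1 of spleen replicates 6, 28 and 3 (-0.19 to -0.17). Ptprc encodes CD45, the phosphatase that removes the inhibitory phosphate from Lck and Fyn. Its values spanned 12.88 to 13.07 over all 14 arrays, and its WT difference of 0.02 had a 95% interval of -0.05 to 0.09, but it passed at -0.13 in WT and -0.15 in ENK KO after quantile normalization.

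Of the adaptors and exchange factors, 6 of 9 were lower and 2 higher in spleen CD8+ cells of both genotypes, beside 38.2% and 30.5% of all genes in WT and 37.1% and 27.4% in ENK KO. Themis, an adaptor needed for thymocytes to pass positive selection, fell most. Its values were 13.38, 13.31 and 13.37 in WT thymus, 13.38 and 13.42 in ENK KO thymus, 11.94, 11.88, 11.80 and 11.84 in WT spleen, and 11.97, 11.83, 11.76, 11.98 and 11.78 in ENK KO spleen. The groups lay far apart, with a fall of 2.81-fold in WT (-1.49, SE 0.058, adjusted p = 1.87e-10) and 2.90-fold (2.84-fold) in ENK KO. Tespa1, an adaptor of calcium release and thymocyte selection, was at 12.21, 12.20 and 12.21 in WT thymus and at 12.21 on both ENK KO thymus arrays. In spleen it was at 11.19, 11.21, 10.83 and 11.12 in WT and at 11.16, 11.14, 11.32, 11.16 and 11.22 in ENK KO. Its fall was 2.17-fold in WT (-1.12, SE 0.078, adjusted p = 4.54e-08) and 2.01-fold (2.05-fold) in ENK KO, and WT spleen replicate 34 was the lowest array.

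Lat and Lcp2 form the scaffold that Zap70 phosphorylates. Lat was at 12.91, 12.60 and 12.83 in WT thymus and at 11.90, 11.97, 11.79 and 11.75 in WT spleen, a fall of 1.91-fold (-0.93, SE 0.094), and of 1.54-fold (1.52-fold) in ENK KO. Lcp2 fell by 1.42-fold in WT (-0.51, SE 0.078) and 1.28-fold (1.34-fold) in ENK KO, and its ENK KO call was lost when 2-month-old samples were left out (-0.33). Vav1, an exchange factor for Rac, fell by 1.45-fold and Nck1, which links the receptor to the actin skeleton, by 1.54-fold in WT, and both had no overlap between tissues. Grap2 (Gads), which joins Lcp2 to Lat, rose by 1.28-fold in WT and 1.31-fold (1.31-fold) in ENK KO. Grb2, which brings the Ras exchange factor Sos1 to Lat, rose by 1.25-fold and 1.24-fold (1.25-fold). Sos1 itself was at 9.34 to 9.69 in WT spleen and 9.49 to 9.63 in WT thymus, with a difference of -0.02 (95% interval -0.23 to 0.19) that became 0.084 after quantile normalization.

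Negative regulators moved in both directions, with 6 of 13 higher and 5 lower in spleen CD8+ cells of each genotype, beside the same shares of all genes. Cbl and Cblb, which encode ubiquitin ligases that limit receptor signalling, moved against each other. Cbl was at 12.93, 12.91 and 12.91 in WT thymus and 12.91 on both ENK KO thymus arrays, against 11.33, 11.27, 11.26 and 11.26 in WT spleen and 11.30, 11.45, 11.35, 11.57 and 11.42 in ENK KO spleen. Cblb was at 10.20, 10.26 and 10.29 in WT thymus and 10.17 and 10.28 in ENK KO thymus, against 12.06, 12.12, 12.10 and 11.98 in WT spleen and 12.08, 12.07, 11.95, 12.04 and 12.05 in ENK KO spleen. The thymus arrays were uniformly high for Cbl and low for Cblb, and no array overlapped with the other tissue. Cbl fell by 3.11-fold in WT (-1.64, SE 0.053, adjusted p = 4.19e-11) and 2.80-fold (2.77-fold) in ENK KO, and Cblb rose by 3.52-fold (1.82, SE 0.049, adjusted p = 6.64e-12) and 3.51-fold (3.57-fold).

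The 250 bases before the start of these genes are shown because Cbl and Cblb had the largest fall and the largest rise among the WT members. The sequences come from RefSeq on GRCm38.p6, and lie at chr9:44234047-44234296 on the minus strand for Cbl and at chr16:52031299-52031548 on the plus strand for Cblb. Both are 5′ to 3′ on the gene's strand, with matches to the searched motifs in capitals on either strand.
Cbl: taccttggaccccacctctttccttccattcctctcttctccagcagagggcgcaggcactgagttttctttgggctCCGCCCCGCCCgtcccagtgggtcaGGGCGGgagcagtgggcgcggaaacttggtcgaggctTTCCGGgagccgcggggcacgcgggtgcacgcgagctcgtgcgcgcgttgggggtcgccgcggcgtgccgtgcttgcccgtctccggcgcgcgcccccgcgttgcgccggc
Cblb: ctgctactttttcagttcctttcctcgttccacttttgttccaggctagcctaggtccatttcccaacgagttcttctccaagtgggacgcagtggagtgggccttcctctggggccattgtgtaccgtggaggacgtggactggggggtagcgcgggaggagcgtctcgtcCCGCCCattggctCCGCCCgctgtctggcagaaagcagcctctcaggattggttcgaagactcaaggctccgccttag
The motifs searched were a GC box (GGGCGG), an ETS core (CCGGAA), a RUNX core (TGTGGT), an E-box (CAGCTG), an NFAT core (GGAAAA) and a TATA box (TATAAA). The Cbl promoter held GC boxes that began 173, 168 and 148 bases before the start, of which the first and second overlap, and an ETS core at 111 bases. The Cblb promoter held GC boxes at 78 and 65 bases and none of the other motifs. Entries were found for 31 of the 38 members, 45 in all. A GC box was found in 52.6% of the 19 entries of members higher in WT spleen and 42.1% of the 19 entries of members lower. It was found in 14.3% of the 7 entries of members that did not pass, and in 32.7% of the 32851 promoters in the table. Some genes have several entries, so entries are not independent. Counted by gene, a GC box was found for 66.7% of 12 genes higher, 53.8% of 13 lower and 16.7% of 6 that did not pass. The share was 35.4% of all 27025 genes with a promoter. An ETS core was found in 0 of 19, 2 of 19 and 1 of 7 entries and in 12% of all promoters, and a RUNX core in 1, 2 and 1 entries and 14%. An NFAT core stood in 3 of 19, 3 of 19 and 2 of 7 entries and in 20.4% of all promoters. An E-box was found in 1, 2 and 0 entries and in 13% of all promoters, and a TATA box in 3, 0 and 1 entries and 12.4%. These are letter matches, and no binding was measured.

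Sla and Sla2 encode adaptors (SLAP and SLAP-2) that help send the receptor to degradation, and both fell. Sla was at 12.75, 12.72 and 12.69 in WT thymus and 12.71 and 12.86 in ENK KO thymus, and at 11.11, 11.42, 11.02 and 11.35 in WT spleen and 11.36, 11.40, 11.32, 11.34 and 11.06 in ENK KO spleen. No spleen array reached the lowest thymus array, and the fall was 2.82-fold in WT (-1.50, SE 0.099, adjusted p = 2.45e-08) and 2.79-fold (2.81-fold) in ENK KO. Sla2 fell by 1.79-fold in WT and 1.67-fold (1.55-fold) in ENK KO. Pag1, a membrane adaptor that holds the inhibitory kinase Csk near Src-family kinases, fell by 1.50-fold in WT and 1.60-fold (1.59-fold) in ENK KO. Csk rose by 1.44-fold and 1.41-fold (1.42-fold), so that these partners moved in opposite directions.

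The phosphatase genes of this step rose. Ptpn22, whose product acts with Csk on Lck, Fyn and Zap70, rose by 1.94-fold in WT (0.96, SE 0.12) and 1.62-fold (1.74-fold) in ENK KO. Ptpn6 (SHP-1) rose by 1.57-fold and 1.44-fold (1.51-fold), and Ubash3a, a suppressor of receptor signalling, by 1.28-fold and 1.36-fold (1.37-fold). The diacylglycerol kinases, which remove the lipid that activates Rasgrp1 and protein kinase C, moved apart: Dgka rose by 1.28-fold in WT and 1.28-fold (1.25-fold) in ENK KO, and Dgkz fell by 1.61-fold in WT and 1.59-fold (1.61-fold) in ENK KO. After quantile normalization the Dgka difference of 0.36 in WT was 0.17, and in ENK KO its call was lost, at 0.13. Dgkz was the only member with another probe set of its own, which did not show the fall, with 7.61 to 7.64 on thymus arrays and 7.33 to 7.76 on spleen arrays. With both probe sets averaged the Dgkz difference passed at -0.34 in WT against -0.69, and at -0.39 in ENK KO against -0.67. Cd5 and Cd6, scavenger-type surface receptors that dampen the signal, did not pass in either genotype. Cd5 differed by -0.23 in WT and -0.01 in ENK KO (-0.13 without replicate 28), and passed in WT without replicate 28. Cd6 differed by 0.17 and 0.24 (0.16 without replicate 28), and passed at 0.29 and 0.36 after quantile normalization and in WT without thymus replicate 7 (0.30).

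Of the downstream enzymes and factors, 5 of 8 were higher and 2 lower in both genotypes, beside 30.5% and 38.2% of all genes in WT and 27.4% and 37.1% in ENK KO. The NFAT genes, whose products enter the nucleus when calcineurin removes phosphates, moved in different directions. Nfatc2 was at 8.49, 8.53 and 8.57 in WT thymus and 8.48 and 8.44 in ENK KO thymus, and at 10.06, 10.20, 10.04 and 9.87 in WT spleen and 10.01, 9.99, 9.90, 10.26 and 9.86 in ENK KO spleen. All spleen arrays were more than 1 log2 unit above all thymus arrays, and the rise was 2.86-fold in WT (1.52, SE 0.091, adjusted p = 1.06e-08) and 2.91-fold (2.97-fold) in ENK KO. Nfatc1, which is induced on activation in T cells, was at 9.40, 9.41 and 9.40 in WT thymus and 9.40 and 9.32 in ENK KO thymus, and at 10.43, 10.51, 10.44 and 10.43 in WT spleen and 10.43, 10.39, 10.34, 10.63 and 10.41 in ENK KO spleen. It rose by 2.07-fold in WT (1.05, SE 0.061, adjusted p = 7.36e-09) and 2.12-fold (2.15-fold) in ENK KO. Nfatc3 went the other way. It was at 12.99, 12.84 and 12.89 in WT thymus and 12.81 and 12.76 in ENK KO thymus, and at 11.93, 11.71, 11.74 and 11.82 in WT spleen and 11.85, 11.85, 11.92, 11.85 and 11.90 in ENK KO spleen. Its fall was 2.15-fold in WT (-1.11, SE 0.054, adjusted p = 1.41e-09) and 1.88-fold (1.89-fold) in ENK KO.

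Malt1, Bcl10 and Prkcq serve the branch to NF-kB, for which Prkcq encodes protein kinase C theta, Bcl10 an adaptor and Malt1 a protease. Malt1 was at 9.63, 9.64 and 9.32 in WT thymus and 9.52 and 9.42 in ENK KO thymus, and at 10.61, 10.91, 10.92 and 10.81 in WT spleen and 10.78, 10.89, 10.79, 10.85 and 10.70 in ENK KO spleen. The tissues did not overlap, and the rise was 2.43-fold in WT (1.28, SE 0.089, adjusted p = 4.37e-08) and 2.52-fold (2.53-fold) in ENK KO. Prkcq rose by 1.66-fold and 1.70-fold (1.68-fold). Bcl10 overlapped between the tissues, and its WT difference of 0.093 (95% interval -0.21 to 0.40) became -0.024 without spleen replicate 34. Rasgrp1, the diacylglycerol-gated activator of Ras in T cells, was at 13.07, 13.21 and 13.08 in WT thymus against 12.15, 12.09, 12.13 and 12.29 in WT spleen, and fell by 1.94-fold in WT and 1.65-fold (1.71-fold) in ENK KO. Plcg1, the phospholipase that makes diacylglycerol and inositol trisphosphate, rose by 1.13-fold in WT and 1.13-fold (1.12-fold) in ENK KO, at differences of 0.17 and 0.18 that were 0.29 and 0.28 after quantile normalization. Its ENK KO call was lost without thymus replicate 29 (0.14).

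**Figure D2:**
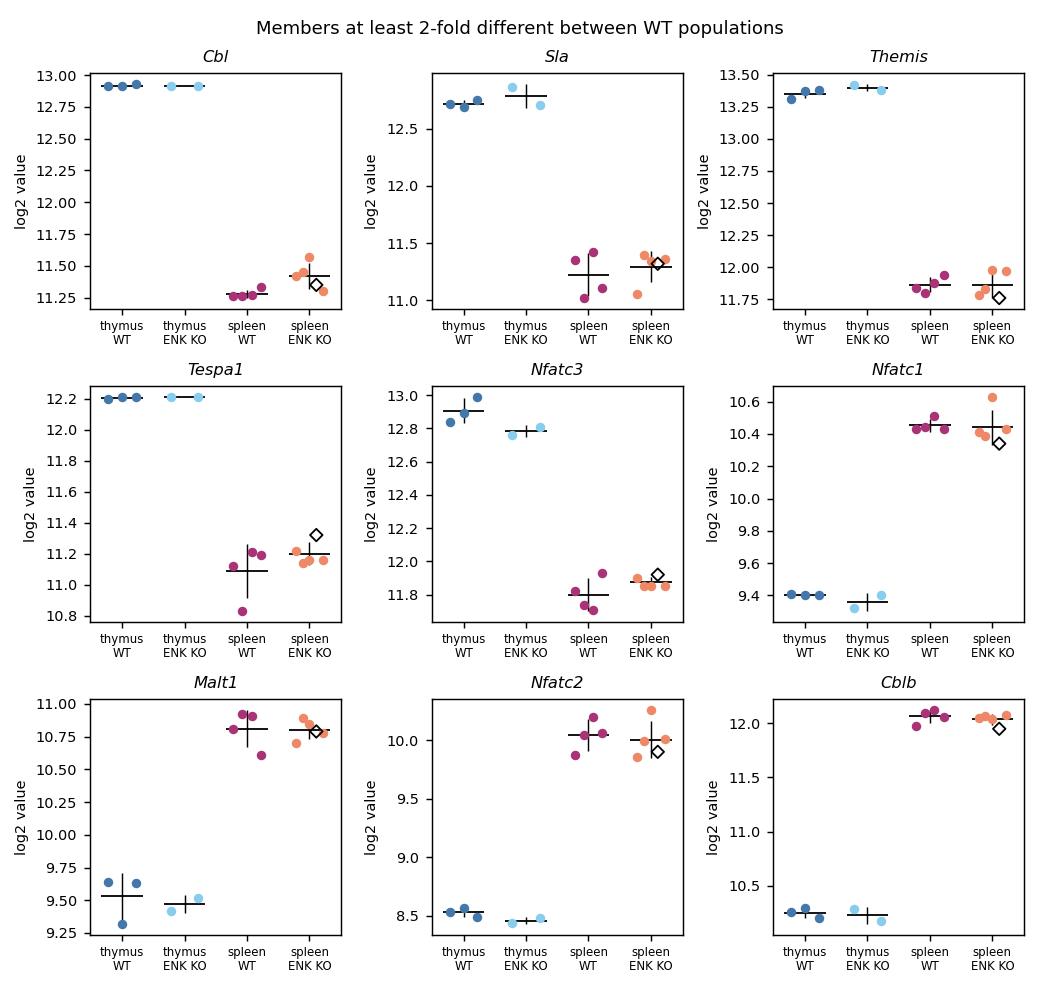
Log2 values on each array for the 9 members that differed at least 2-fold between the WT populations. Points are arrays, horizontal lines are group means and vertical lines are 1 SD, the open diamond is spleen ENK KO replicate 28, and each panel has its own axis that does not start at 0. No spleen array overlaps a thymus array in any panel, and WT and ENK KO arrays of a tissue lie close together.

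Related genes were compared by their changes within each array, which leaves the level of one probe set against another out of the test. The log2 difference of a pair was set between the 9 spleen and the 5 thymus arrays by an exact two-sided permutation test, whose smallest possible p is 0.000999, with Benjamini-Hochberg adjustment over 11 pairs. Passing pairs numbered 9. Of all genes, 68.6% passed between the WT populations and 56.5% had no overlap between the tissues. Whether pairs of other genes pass as often was not tested. The widest gap was between Cbl and Cblb, whose changes of -1.56 and 1.81 over both genotypes differed by -3.37 log2 units, a 10.3-fold shift of their ratio (exact permutation p = 0.000999, adjusted p = 0.00137). Nfatc2 and Nfatc3 shifted by 2.54 against each other and Nfatc1 and Nfatc3 by 2.08, with the same p. Nfatc2 rose more than Nfatc1 by 0.46, a shift of their ratio of 1.37-fold with no overlap of arrays.

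The ratio of Dgka to Dgkz rose by 1.02 log2 units (2.03-fold), with no array of one tissue overlapping the other. This size rests on the deposited values and the Dgkz probe set of higher mean. As given above, the WT difference of Dgkz was -0.34 with averaged probe sets. That of Dgka was 0.17 after quantile normalization. Sla fell more than Sla2, the difference of the changes being -0.67. The change of Cd247 lay 0.65 below that of Cd3e (-0.65), and that of Cd3g differed from it by -0.25 (exact permutation p = 0.002, adjusted p = 0.00244). The change of Cd5 was 0.35 below that of Cd6 (-0.35), although neither gene passed on its own. Grap2 and Grb2 changed by 0.38 and 0.33, a gap of 0.05 (p = 0.282, exact permutation), and Cd3d and Cd3e by -0.13 and -0.10, a gap of -0.03 (exact permutation p = 0.811) that turned to 0.01 without replicate 28. Without replicate 28 the number of passing pairs was also 9, at an adjusted p of 0.0019 (exact permutation), and Cbl against Cblb shifted by -3.38, Nfatc2 and Nfatc1 against Nfatc3 by 2.56 and 2.1, Nfatc1 against Nfatc2 by -0.46 and Dgka against Dgkz by 1.02. The gap was then -0.73 for Sla and Sla2, -0.67 for Cd247 and Cd3e, -0.26 for Cd3g and Cd3e, -0.37 for Cd5 and Cd6 and 0.05 for Grap2 and Grb2.

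**Figure D3:**
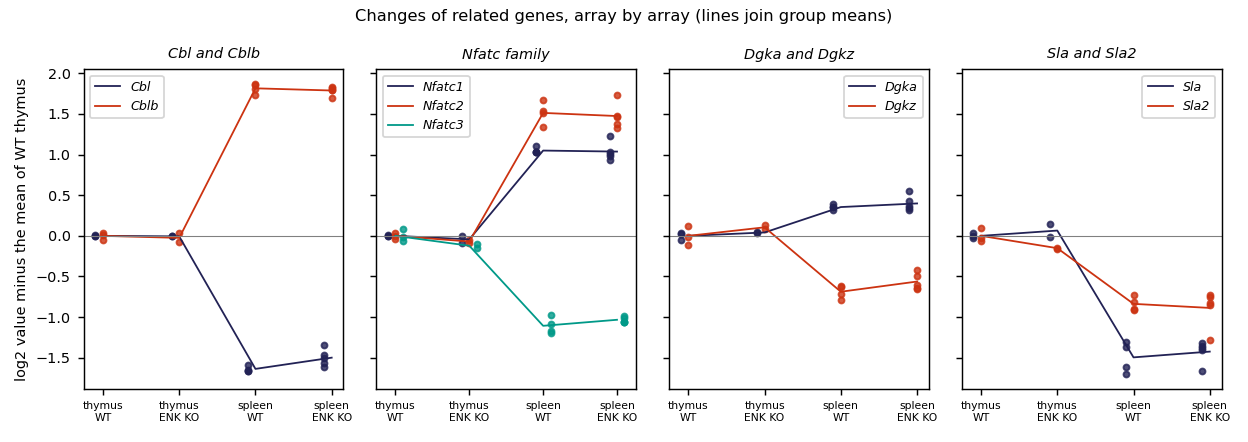
Log2 value of each related gene minus its mean on the WT thymus arrays, for Cbl and Cblb, the NFAT genes, Dgka and Dgkz, and Sla and Sla2. Points are arrays and lines join group means. The ratio of Cbl to Cblb shifts by 10.3-fold between the tissues, Nfatc3 runs against Nfatc1 and Nfatc2, and Sla and Sla2 move the same way.

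ENK KO and WT did not differ for any member at an adjusted p under 0.05, with 0 of 38 in thymus (0.0147% of all genes, 2 genes) and 0 of 38 in spleen (0.00733%, 1 gene). The difference between the spleen effect and the thymus effect passed for 0 of 38 members (0.00733%). At an unadjusted p under 0.05 there were 2 members in thymus against 3.53% of all genes, 2 in spleen against 8.37%, and 2 for the difference of the effects against 2.99%. The members' estimates ran from -0.31 to 0.21 in thymus and from -0.35 to 0.21 in spleen. The 95% interval stayed within 1.5-fold in either direction for 35 of 38 members in thymus (all but Bcl10, Cd28 and Cd3d) and for 37 of 38 in spleen (all but Cd28). Without replicate 28 the calls were again 0 of 38 in thymus (0.0367% of all genes), in spleen (0.0147%) and for the difference of the effects (0.00733%), and 3 members in thymus (4.07%) and 3 for the difference of the effects (3.61%) had an unadjusted p under 0.05. The spleen estimates then ran from -0.55 to 0.17, and the interval stayed within 1.5-fold for 37 members in thymus (all but Bcl10) and 37 in spleen (all but Cd28). The spread behind these intervals was pooled over the arrays of both tissues. For Cd28 the SD within groups was 0.08 in thymus and 0.47 in spleen, so its wide thymus interval includes the spread of its spleen values. The SD was 0.16 in thymus and 0.21 in spleen for Bcl10. For Cd3d it was larger in thymus, at 0.31 against 0.14 in spleen. The intervals cover the spread between arrays only, and do not show that the genotypes are alike.

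The thymus members of smallest p were Ptprc, Lat, Pag1 and Nfatc3. Ptprc was at 12.96, 12.97 and 12.88 in WT and 13.00 and 13.07 in ENK KO, both ENK KO arrays above the WT arrays (0.10, SE 0.038, unadjusted p = 0.0203, limma adjusted p = 1). Lat was at 12.91, 12.60 and 12.83 in WT and 12.55 and 12.48 in ENK KO, both below the WT arrays (-0.27, SE 0.11, unadjusted p = 0.0358, adjusted p = 1 by limma). Pag1 was at 10.44, 10.17 and 10.44 in WT and 10.49 and 10.63 in ENK KO (0.21, SE 0.10). Nfatc3 differed by -0.12 (SE 0.064), and neither of these passed before adjustment either. Replicate 1, the younger ENK KO sample, held the more extreme value of Ptprc, Lat, Pag1 and Nfatc3.

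The spleen members of smallest p were Rasgrp1, Cbl, Dgkz and Grb2. Rasgrp1 was at 12.15, 12.09, 12.13 and 12.29 in WT and at 12.23, 12.40, 12.59, 12.39 and 12.28 in ENK KO, where replicate 28 was the highest array and the groups overlapped (0.21, SE 0.067, unadjusted p = 0.00764, limma adjusted p = 0.595). Without replicate 28 the Rasgrp1 difference was 0.16 (limma adjusted p = 0.463). Cbl differed by 0.14 (SE 0.047, limma adjusted p = 0.595), with ENK KO replicate 31 at 11.30 below WT replicate 40 at 11.33 and the other ENK KO arrays above all WT arrays, and by 0.16 (SE 0.048) without replicate 28. Dgkz was at 9.88, 9.96, 10.05 and 10.04 in WT and 10.03, 10.02, 10.18, 10.25 and 10.06 in ENK KO (0.12, SE 0.063), by 0.11 (SE 0.067) without replicate 28, and its difference was -0.0035 when its probe sets were averaged. Grb2 was at 9.09, 9.21, 9.13 and 9.19 in WT and 9.33, 9.25, 9.21, 9.16 and 9.23 in ENK KO (0.085, SE 0.05), by 0.091 (SE 0.054) without replicate 28, and its groups overlapped as well.

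**Figure D4:**
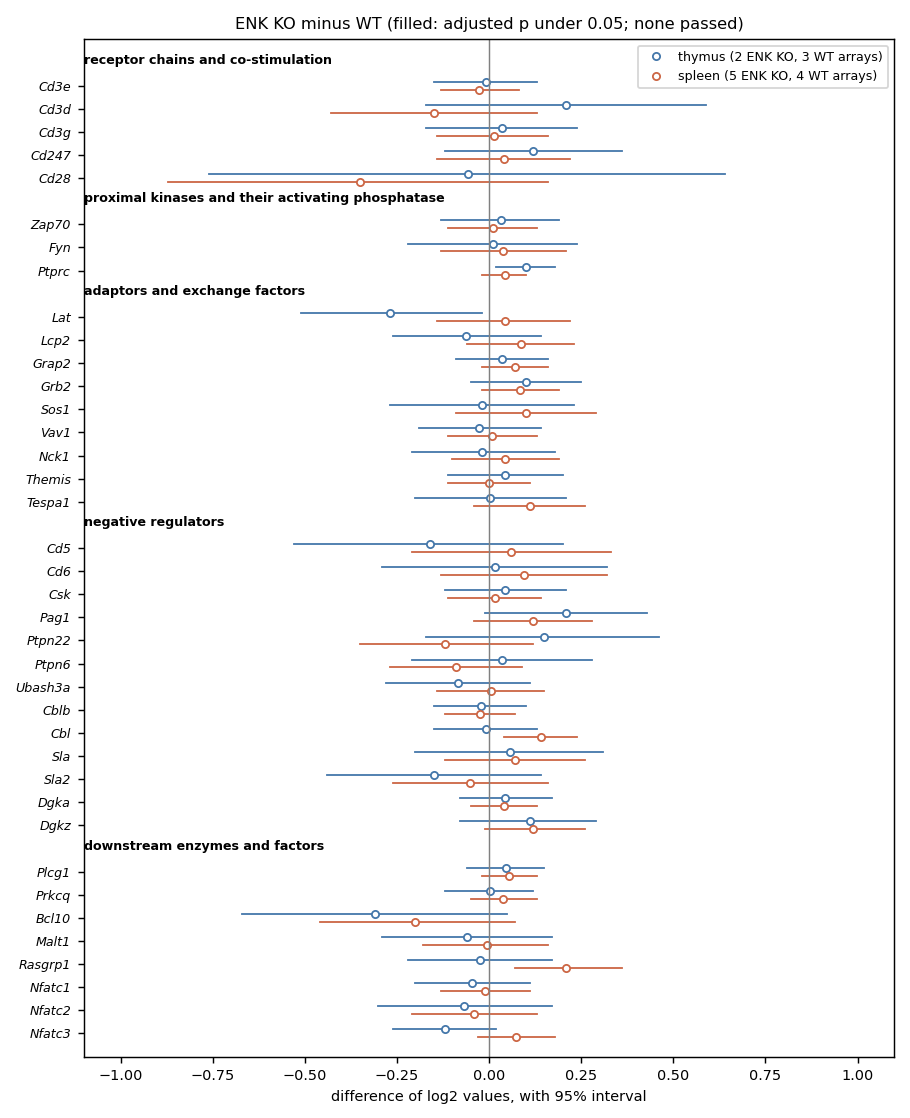
ENK KO minus WT difference in log2 value for the 38 members in thymus and in spleen, grouped by signalling step. Points are estimates from the limma fit and bars are 95% intervals. The spread behind the bars was pooled over the arrays of both tissues. No point is filled, since no member passed at an adjusted p under 0.05, and the intervals of Cd28 are the widest.

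Cd28 varied more between spleen arrays than most genes. Its values were 11.31, 11.68, 11.80 and 11.45 in WT spleen and 11.70, 10.78, 11.99, 10.78 and 10.79 in ENK KO spleen, against 12.02, 12.15 and 12.00 in WT thymus and 12.06 and 11.94 in ENK KO thymus. Replicates 6, 25 and 3 lay below all WT spleen arrays, replicate 31 lay among them and replicate 28 above them. The pooled SD within spleen groups was 0.47, at the 98.0th percentile of all genes tested, and 0.36 without replicate 28, at the 97.6th percentile, where the median was 0.083 for the members and 0.092 for all genes. The difference was -0.35 (limma adjusted p = 0.691) with all arrays and -0.55 (SE 0.19, limma adjusted p = 0.463) without replicate 28. With no 2-month-old samples, which removes replicates 6 and 3 but keeps replicate 28, it was -0.068. The ENK KO spleen arrays in that fit were replicate 31 at 11.70, replicate 28 at 11.99 and replicate 25 at 10.78. Without replicate 28, Cbl, Cd28, Rasgrp1 and Sos1 were under an unadjusted p of 0.05, 4 members against 9.72% of all genes, with limma adjusted p from 0.463 to 0.479.

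Replicate 28 lay outside the other spleen arrays for 5 of 5 receptor chain and co-stimulation genes and 1 of 3 proximal enzymes. The counts were 4 of 9 for adaptors, 7 of 13 for negative regulators and 4 of 8 for downstream members, against 32.9% of all genes. Of the 5, Cd3g, Cd247 and Cd28 lay above the others by 0.12 to 0.19, Cd3e above by 0.01 and Cd3d below by 0.09. Cd5 was at 12.29 on replicate 28 against 11.54 to 11.81 on the other spleen arrays. Cd6 was at 10.75 there against 10.24 to 10.44, and Lcp2 at 12.67 against 12.27 to 12.43. It was below the others for Sla2 (10.31 against 10.69 to 10.87), Ptpn22 (10.99 against 11.37 to 11.63) and Ptpn6 (10.57 against 10.84 to 11.07). For the 9 members with a population difference of at least 2-fold, replicate 28 remained on the spleen side of every thymus array. Replicate 25, the oldest ENK KO sample, was outside the other 8 spleen arrays for 31.6% of members, 11 above and 1 below, against 24.6% of all genes.

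**Figure D5:**
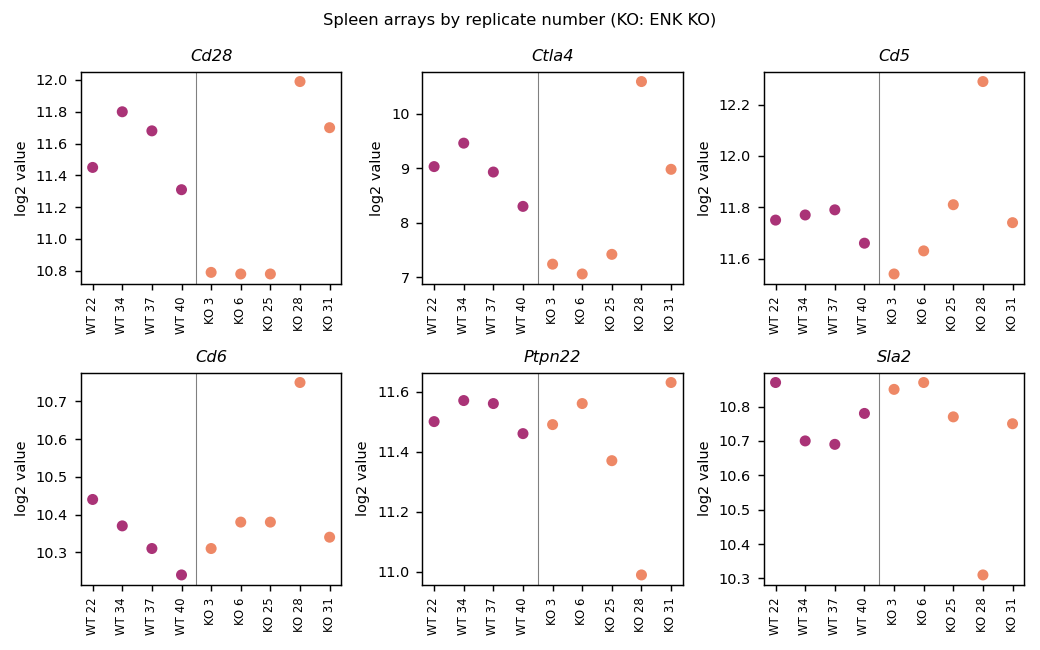
Log2 values on the 9 spleen arrays by replicate number for Cd28, Ctla4, Cd5, Cd6, Ptpn22 and Sla2, with WT left of the line and ENK KO (marked KO) right of it. Points are single arrays, and the axes do not start at 0. Replicate 28 is the highest array for Cd28, Ctla4, Cd5 and Cd6 and the lowest for Ptpn22 and Sla2, and replicates 3, 6 and 25 are the lowest for Cd28 and Ctla4.

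Of 90 further genes of the pathway, 76 had a probe set of a single symbol and were tested. Between the WT populations 30 of them rose and 29 fell in spleen CD8+ cells, 77.6% against 68.6% of all genes. By at least 2-fold 13 rose and 6 fell, 17.1% and 7.89% against 6.70% and 6.13% of all genes. Pik3cd, the p110 delta subunit of the leukocyte PI3-kinase, rose most. It was at 7.95 to 8.52 on thymus arrays and 11.03 to 11.48 on spleen arrays, 8.32-fold higher in WT (3.06, SE 0.13, adjusted p = 3.16e-10) and 8.25-fold (8.57-fold) in ENK KO. Ppp3cc, a catalytic subunit of calcineurin, was at 7.50 to 8.18 in thymus and 10.46 to 10.73 in spleen, a rise of 7.08-fold in WT and 7.18-fold (7.38-fold) in ENK KO. Btla, an inhibitory receptor, rose by 4.81-fold in WT. Ubash3b, the close relative of Ubash3a, was at 6.36 to 6.42 in thymus, under the filter level of 6.76 on every array, and at 8.22 to 8.89 in spleen. It was tested through its spleen values alone, and against the filter level it was at least 3.35-fold higher in WT spleen. Its place among the 4 largest rises rests on the fitted difference, since Orai3, named after its values were seen, lies above that bound at 3.53-fold.

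Those that fell most were Trat1, Rasgrp4, Vav2 and Nck2. Trat1, a transmembrane adaptor that binds the receptor complex, was at 11.02 to 11.78 in thymus and 7.77 to 10.39 in spleen, and fell by 8.20-fold in WT (-3.04, SE 0.50, adjusted p = 0.000138) and 5.41-fold in ENK KO. Replicate 28 was the highest spleen array for Trat1, at 10.39, and without it the fall in ENK KO was 6.92-fold. Rasgrp4, of the same family of Ras activators as Rasgrp1, fell by 5.30-fold in WT. Vav2 and Nck2, relatives of the members Vav1 and Nck1, fell by 2.98-fold and 2.45-fold in WT and by 2.96-fold (3.07-fold) and 2.30-fold (2.32-fold) in ENK KO. For genotype, limma called 0 of the 76 in either tissue. With all arrays an unadjusted p under 0.05 was reached by 0 in thymus and 5 in spleen, beside 3.53% and 8.37% of all genes. Without replicate 28 it was reached by 1 and 9, beside 4.07% and 9.72% of all genes. Those of smallest p were Itpr2 (0.17), Was (-0.16), Ptpn7 (-0.20) and Rela (-0.15) in thymus, and Nras (0.10), Txk (-0.13), Ikbkb (0.11) and Rac2 (-0.093) in spleen, at limma adjusted p-values of 1 and 0.595.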

How the data were processed

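Per the labels' protocols, RNA of FACS-sorted T cells was extracted with TRIzol, cleaned on RNeasy columns, and 300 ng of it was made into biotinylated sense-strand cDNA. Arrays were of 1 colour, 1 per sample. For each probe set the authors deposited a log2 value from RMA (background correction, quantile normalization and probe summary), a method that the submitters' processing notes name. Its software, version and probe build: not given in the sources used here. Precision is limited by how many arrays there are.

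Of 28213 probe sets, 21640 had 1 symbol in the platform annotation, 1321 several and 5252 none in it. Gene IDs of 21553 were found in RefSeq (GRCm38.p6), which changed 0 symbols. Each gene was represented by its probe set with the highest mean. A gene was tested where 2 or more arrays exceeded 6.76, the 40th percentile over the whole table (13641 genes).

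All 14 arrays entered 1 limma model (3.58.1, R 4.3.3) with a mean per group and a variance trend, with Benjamini-Hochberg adjustment over all genes tested. Steps were tested on simulated data. The labels do not state that samples are separate animals, so the spread behind the p-values is that between samples and may be technical. The members and lists were chosen with earlier results of these data known. Array values are given for members at least 2-fold different between WT populations and, per genotype comparison, the 4 of smallest p; of other pathway genes the 4 largest per direction are named. Array values of other members, and the genes in the closing section, were chosen after their values were seen. Alternatives were other filters, quantile normalization, median centring, averaged probe sets, variance models, covariates, tissues alone, and arrays left out. The fit of spleen arrays alone without replicate 28, and the alternatives for the other pathway genes, were added after seeing the data.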

Additional observations from a re-analysis of the deposited data

Results flagged for a closer look

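Within groups of 4 or 5 spleen arrays, 11 of the 76 member groups examined had an array far from the others by Dixon's test (14.5%), where the same test marked 14.3% of the groups over all genes tested and chance gives about 1 in 20. The members' share was 3 of 38 in WT, beside 13.6% of all genes, and 8 of 38 in ENK KO, beside 14.9%. Replicate 28 of ENK KO gave 4 of them: Lcp2 at 12.67 (others 12.35 to 12.43) and Cd6 at 10.75 (others 10.31 to 10.38) were high, and Vav1 at 10.73 (others 10.94 to 11.02) and Sla2 at 10.31 (others 10.75 to 10.87) were low. Replicate 25 of ENK KO was high for Lat at 12.17 (others 11.81 to 11.84), Csk at 10.98 (others 10.83 to 10.86) and Ubash3a at 10.71 (others 10.56 to 10.57). Replicate 3 of ENK KO was low for Sla at 11.06 (others 11.32 to 11.40). Among WT arrays, replicate 40 was low for Pag1 at 9.58 (others 9.82 to 9.83) and high for Cbl at 11.33 (others 11.26 to 11.27), and replicate 37 was high for Nfatc1 at 10.51 (others 10.43 to 10.44).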

How the results depend on the processing

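Genotype counts over members stayed at 0 except with an unadjusted p under 0.05, which gave 2 in thymus and 2 in spleen. Leaving out single arrays gave 29 to 32 members called between WT populations and 28 to 32 in ENK KO, 9 to 11 and 7 to 9 at a fold of at least 2, and 9 of 11 pairs throughout. Of the calls, 29 of 30 in WT (all but Zap70) and 25 of 31 in ENK KO (all but Cd28, Cd3g, Dgka, Lcp2, Plcg1 and Zap70) held in all 25 alternatives. Directions turned only in uncalled results. Quantile normalization turned the WT differences of Ptprc (-0.13) and Sos1 (0.084) and the ENK KO difference of Cd5 (0.039), and median centring turned Cd5 as well (0.013). Without 2-month-old samples the genotype difference of Cd28 in thymus was 0.0034 (0.21 with an age term), and the ENK KO population differences were 0.0068 for Ptprc and 0.049 for Cd5. Averaged probe sets turned Dgkz in spleen (-0.0035), and leaving out replicates 28 and 22 turned Sos1 in WT (0.043). Single arrays left out gave -0.12 to 0.07 for Cd3d against Cd3e and -0.12 to 0.0034 for Cd28 in thymus. In WT populations they gave -0.097 to 0.24 for Cd3d, -0.0079 to 0.036 for Ptprc, -0.071 to 0.043 for Sos1 and -0.024 to 0.18 for Bcl10, and in ENK KO -0.13 to 0.077 for Cd5. The cause was not tested. No paired analysis was possible because the groups share no replicate number.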

Other observations

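Genes of the calcium branch, which feeds NFAT, differed between the WT populations in both directions; they are listed here after their values were seen. Of the calcineurin genes, Ppp3ca rose by 2.03-fold in spleen CD8+ cells (log2 difference 1.02, SE 0.059, limma adjusted p = 7.60e-09), while the catalytic subunit gene Ppp3cb fell by 1.30-fold and the regulatory subunit gene Ppp3r1 by 1.56-fold. Orai1 and Orai3, which encode plasma membrane calcium channel subunits, rose by 2.34-fold and 3.53-fold, and Orai2 differed by -0.051 (SE 0.21). Orai2 had 2 probe sets of its own, and this value is from the one with the higher mean. Of the inositol trisphosphate receptors, Itpr3 rose by 1.84-fold and Itpr2 fell by 1.75-fold. Stim2, a sensor of stored calcium, fell by 1.43-fold, and Stim1 differed by -0.064 (SE 0.052).

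Ctla4, which encodes a receptor that competes with CD28 for its ligands and neighbours Cd28 on chromosome 1, had spleen values of 8.30, 8.93, 9.46 and 9.03 in WT and 8.98, 7.06, 10.59, 7.42 and 7.24 in ENK KO, in the replicate orders given above. The same replicates, 6, 25 and 3, were lowest for Ctla4 and for Cd28, and replicate 28 was highest for both. With all arrays the difference of Ctla4 between ENK KO and WT spleen was -0.67, which did not pass. Without replicate 28 it was -1.25 (SE 0.37, limma adjusted p = 0.459). Icos, which lies beside them, was at 9.72 to 10.46 in WT spleen and 9.66 to 10.43 in ENK KO spleen.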
